A study of Homo sapiens with 13 samples.

Results

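The 9 genes described here encode receptor tyrosine kinases that act as oncogenes in human cancers: ALK, RET, KIT, MET, FGFR1, IGF1R, NTRK2, NTRK3 and PDGFRA. They are 9 of the 58 human receptor tyrosine kinase genes and of the 20007 protein-coding gene symbols of GENCODE release 44 that were measured the same way. They were chosen by earlier readouts of these data, as kinase genes compared in number, width and covered share of accessible regions between the small cell lung cancer (SCLC) lines H82 and H146, so their differences between the lines are a description and carry no test.

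Receptor tyrosine kinases sit in the cell membrane, bind a growth factor outside the cell and, once paired, phosphorylate each other and their adaptors to start signalling inside it. In tumours they are switched on by point mutation, by extra gene copies or by a fusion in which the kinase part of the gene is joined to the start of another gene. A fusion gene is read from its partner's promoter and keeps the introns downstream of the break, which makes the position of accessible chromatin along these long genes of interest. ATAC-seq marks such chromatin: the Tn5 transposase cuts DNA that is free of nucleosomes, at promoters and at distal elements that may act as enhancers.

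H82 and H146 are established lines with the wild-type genotype in their labels; H82 is classed as the NEUROD1 subtype (SCLC-N) and H146 as another neuroendocrine subtype. H82 was profiled in 3 untreated libraries and 3 libraries treated with 100 nM FHD-286, an inhibitor of the chromatin remodelling ATPases SMARCA4 and SMARCA2, for 14 days. H146 was profiled in 4 untreated libraries and 3 libraries after the same treatment, and all cells were grown in RPMI1640 with 10% fetal bovine serum. The deposited data are 1 merged list of regions, or atlas, per line, with treated and untreated libraries pooled and with positions but no counts or scores.

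An effect of FHD-286 on these genes therefore cannot be read, the depth behind a region is unknown, and there are no replicates. The H82 atlas holds 206927 regions over 167 Mb and the H146 atlas 174093 regions over 139 Mb, so H82 has 1.19 times the regions and 1.20 times the covered bases. The line cannot be told apart from the number and depth of libraries or from DNA copy number, and neither of the last 2 was measured here. Among lineage markers checked against the labels, NEUROD1 lacked a region near its transcription start site (TSS) in H146, and the TSS of INSM1, SYP, CHGA, POU2F3 and YAP1 was marked in both lines.

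For each gene, regions were taken from a window of the gene body and 50 kb to either side. A region is called shared where it has 1 bp or more in common with any region of the other line, and otherwise H82-only or H146-only. A gene is called higher in a line where that line covers at least 1.5 times the bases of the other. By this rule 4 of the 9 genes were higher in H82, namely ALK, NTRK3, MET and IGF1R, against 29.5% of all protein-coding genes (29.6% of those of at least 50 kb). Another 3 were higher in H146, namely RET, KIT and PDGFRA, against 5.26% of all genes (5.4% of those of at least 50 kb). NTRK2 and FGFR1 were not called. The genes were chosen on this contrast, so nothing is read from these shares.

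By number of regions, 4 genes were at least 1.5 times higher in H82 (all genes, 30.8%) and 3 in H146 (all genes, 6.31%). The H82 genes are the same 4, whereas in H146 FGFR1 takes the place of RET. For all 3 H146 genes, the interval from counting error of the log2 ratio of numbers, H82 over H146, included equality. It ran from -1.90 to 0.67 for KIT, -1.98 to 0.55 for PDGFRA and -1.48 to 0.23 for FGFR1. Among the H82 genes the MET interval also included equality, and those of ALK, NTRK3 and IGF1R did not. The IGF1R interval, 0.11 to 1.40, still included the value of the whole atlases, 0.25. These intervals are no test, since regions of 1 gene are not independent and the genes were chosen on this contrast. By covered bases, the values nearest the threshold are IGF1R, just inside at 1.58 times in H82, and FGFR1, just outside at 1.42 times in H146. In region number KIT lies on the threshold itself, with 15 regions in H146 against 10 in H82. The median log2 ratio of H82 to H146 was -0.11 over the 9 genes and 0.19 over all genes with regions in both lines, with quartiles of -0.14 and 0.67.

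**Figure D1:**
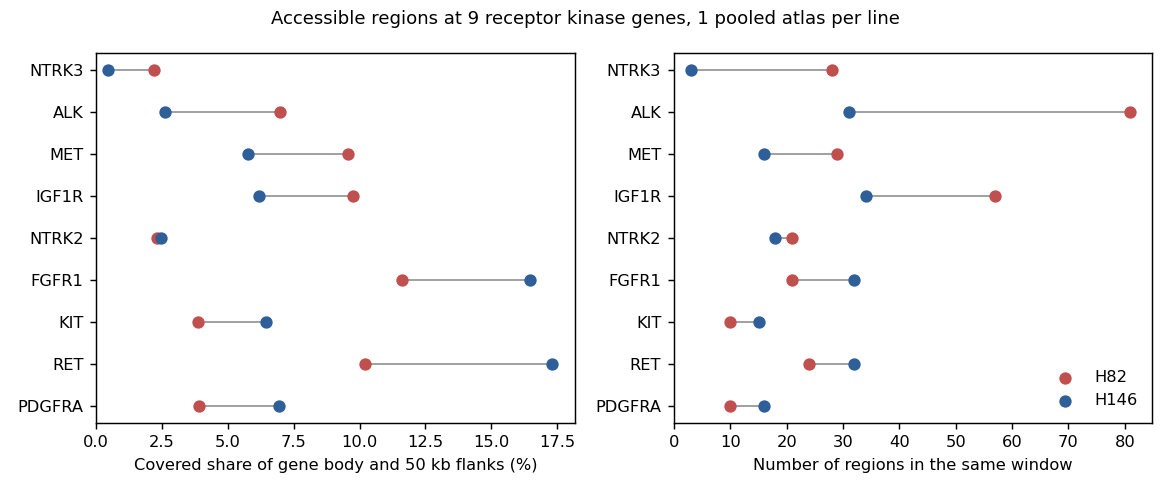
Covered share (%, left) and number of regions (right) in the gene body and 50 kb flanks of each of the 9 genes, with 1 point per line (red, H82; blue, H146), ordered by the ratio of the lines. NTRK3, ALK, MET and IGF1R lie higher in H82, RET, KIT, PDGFRA and FGFR1 lie higher in H146, and the NTRK2 points nearly coincide.

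Within 1 kb of the TSS, a region was found in both lines at 9 of the 9 genes, as at 77.8% of all genes. A TSS region was seen in 1 line alone at 4.74% (H82) and 1.69% (H146) of all genes. By this measure the lines differ at these genes in what lies beyond the TSS region and, at some of them, in its width. The widths were close to each other at KIT, MET and NTRK2. At NTRK3 the start base itself was covered in H146 only. Of the 281 H82 regions in the 9 windows, 132 were shared (47.0%, 95% exact binomial interval 41.0 to 53.0%), against 59.3% of the whole H82 atlas. The genes differed widely: ALK, with 24 of 81 shared, and NTRK3, with 3 of 28, had the lowest shares. IGF1R, MET and NTRK2 were also below the share of the atlas, and RET, KIT, FGFR1 and PDGFRA were above it. The pooled share is thus no trait of all 9 genes. Of the 197 H146 regions, 133 were shared (67.5%, 60.5 to 74.0%), against 70.5% of the whole H146 atlas. These intervals cover counting error only, and regions of 1 gene are not independent. The line-only regions lay mostly inside introns in H82, 107 of 149, and less so in H146, 28 of 64. Of the 107, 51 lay in ALK, 21 in IGF1R and 17 in NTRK3, which are long genes, whereas windows of short genes are mostly flank. The intron share over the whole atlases was not computed, so no difference between the lines is read from these counts. The line-only regions were also narrow, with a median width of 363 bp in H82 and 342 bp in H146. Shared regions had medians of 538.5 and 604 bp. Over the whole atlases the medians were similar, 377 and 315 bp for line-only and 610 and 662 bp for shared regions.

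**Figure D2:**
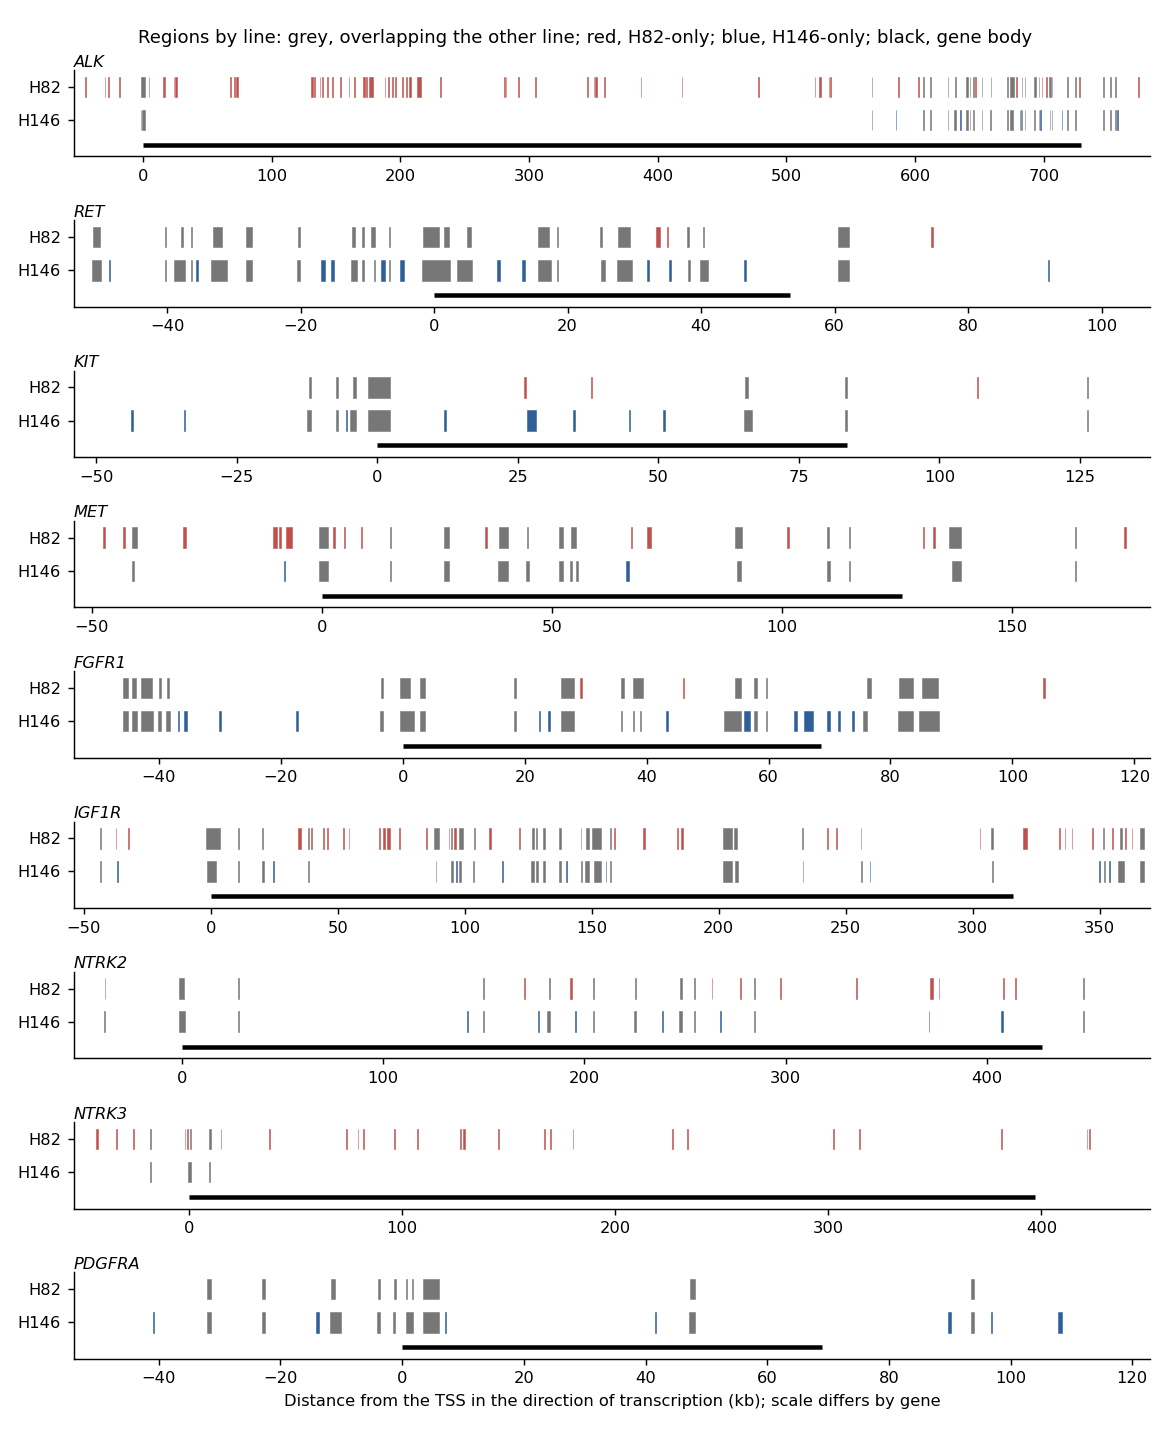
Accessible regions along each of the 9 genes in H82 (upper row) and H146 (lower row), by distance from the TSS in kb, with grey regions overlapping the other line, red H82-only, blue H146-only and the gene body in black. Each region has a thin outline, so the narrowest look slightly wider than to scale. ALK and NTRK3 show long stretches with red regions and none in H146, and RET shows blue regions on both sides of its TSS.

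ALK, the receptor for the ligands ALKAL1 and ALKAL2 and a driver of neuroblastoma and of fusion-positive lung cancer, had the largest surplus of regions. It lies on the minus strand of hg38 at chr2:29192774-29921586, a body of 729 kb with 28 introns. H82 had 81 regions in the window, covering 6.98%, and H146 had 31, covering 2.60%, a difference of 2.68 times in covered bases (log2 1.42). The log2 ratio of region numbers was 1.39, with a 95% interval from counting error of 0.77 to 2.03. H82 had 57 regions with no counterpart and H146 had 6. The TSS region was present in both lines and was wider in H82, 3756 bp against 2052 bp.

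The ALK difference lay in the 5′ part of the gene. Introns 1 to 4, 536 kb at chr2:29383860-29919992, held 46 H82 regions covering 6.10% of their length and not a single H146 region. By intron the H82 regions numbered 27, 3, 10 and 6, and intron 2, at 22.6 kb the shortest of the 4, was covered to 25.4%. Of the 46 regions 1 was shared, the inner edge of the TSS region, and 5 had the minimal width of 200 bp (median 522.5 bp). Introns 5 to 28 looked alike in the lines. Together they span 190 kb and held 26 H82 regions (9.11%) and 25 H146 regions (8.46%), with 20 of each shared.

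In H146 the region-free stretch ran from 1.42 to 566 kb downstream of the ALK TSS, 565 kb in all, whereas the longest gap in the gene body in H82 was 58.9 kb. A search made after this was seen found 106 H146 region-free stretches at least as long anywhere in the genome. The median number of H82 regions in them was 3, and 2 of them, the ALK stretch included, held at least 46. In the other direction, 77 H82 stretches were as long, and 0 of them held 46 H146 regions. Intron 19, the intron in which ALK fusions usually break, held 1 H82 and 2 H146 regions. The second RefSeq start of ALK, 698 kb downstream of the first and inside intron 19, was covered by no region in either line.

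The widest H82-only region of ALK measured 3496 bp and lay in intron 2, 214 kb from the TSS. Its central 200 bases (hg38 plus strand, chr2:29707073-29707272) are shown as the leading example of the H82-only ALK elements, with capitals marking a match to CAGATG, an E-box of the NEUROD1 type, here read on the minus strand as CATCTG.
ALK intron 2, H82-only: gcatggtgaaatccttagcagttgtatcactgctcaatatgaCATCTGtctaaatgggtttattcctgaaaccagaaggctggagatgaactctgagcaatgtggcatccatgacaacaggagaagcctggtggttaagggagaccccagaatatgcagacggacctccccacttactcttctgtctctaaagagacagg

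**Figure D3:**
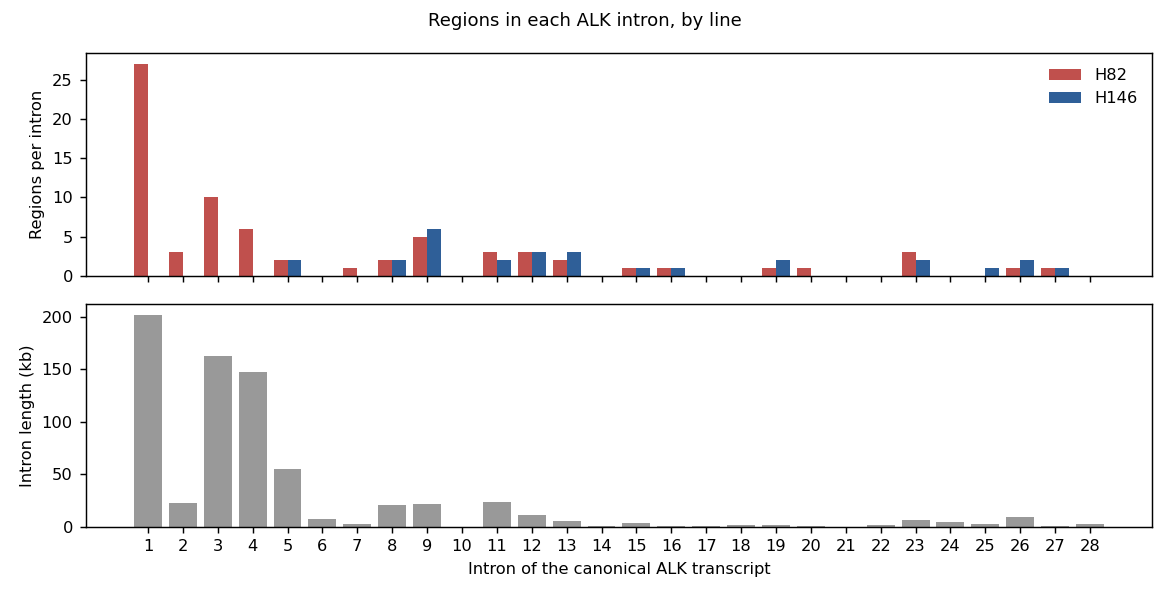
Number of regions in each of the 28 introns of the canonical ALK transcript in H82 (red) and H146 (blue), above the length of each intron in kb. Introns 1 to 4 hold 46 H82 regions and 0 H146 regions, while introns 5 to 28 together hold 26 and 25.

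NTRK3, which encodes the neurotrophin-3 receptor TrkC and forms the ETV6 fusion of secretory carcinomas, showed the largest ratio among the 9 genes. It lies on the minus strand at chr15:87859751-88256791 with a body of 397 kb. H82 had 28 regions covering 2.18% of the window, and H146 had 3 covering 0.454%, which is 4.80 times higher in H82 (log2 2.26). This log2 value fell to 1.15 where narrower regions than 500 bp were left out. All 3 H146 regions were shared, 25 of the 28 H82 regions were not, and H146 had no region from 9.98 kb downstream of the TSS for the following 387 kb. The H82 regions in that stretch were narrow, and all but 1 were spread over introns 3, 5, 10, 11, 13 and 14, and the widest H82 region of the whole window measured 797 bp. With 3 regions in H146, the log2 ratio of numbers, 3.22, had a counting interval of 1.53 to 5.58.

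At the NTRK3 promoter the order was the other way round. H146 had 1 region of 1460 bp over the TSS, whereas H82 had a region of 420 bp starting 653 bp downstream and another of 232 bp that ended at -406 bp, upstream, and the start base itself was uncovered. H82 thus had more distal NTRK3 regions and a less covered promoter. The widest H82-only region measured 789 bp and lay 43.0 kb upstream of the TSS. Its central 200 bases (hg38 plus strand, chr15:88299660-88299859) are shown because they hold the same word as the ALK element, as CATCTG in capitals. This choice is not typical: the central 200 bases of the widest H82-only regions of RET, KIT, MET, IGF1R and NTRK2 held no CAGATG. Over the whole atlas, 25.1% of H82-only regions held CAGATG in their central 200 bases.
NTRK3 upstream, H82-only: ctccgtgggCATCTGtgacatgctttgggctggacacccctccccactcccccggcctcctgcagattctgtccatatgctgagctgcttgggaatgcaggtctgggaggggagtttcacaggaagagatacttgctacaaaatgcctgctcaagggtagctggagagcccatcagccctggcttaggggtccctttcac

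NTRK2, the gene of the BDNF receptor TrkB, did not share this pattern. It lies on the plus strand at chr9:84668375-85095751 and held 21 H82 regions over 12.1 kb and 18 H146 regions over 13.1 kb, a log2 ratio of covered bases of -0.11. The TSS regions measured 2672 and 2882 bp. Both lines left a long gap after the region 28.2 kb downstream of the TSS, of 121 kb in H82 and 114 kb in H146. The lines still used different sites within the gene, since 10 of the H82 and 7 of the H146 regions had no counterpart.

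MET, the receptor for hepatocyte growth factor, lies on the plus strand at chr7:116672196-116798377. H82 had 29 regions covering 9.57% of the window and H146 had 16 covering 5.77%, 1.66 times higher in H82. The interval of the log2 ratio of numbers, -0.07 to 1.84, included equality. The TSS regions were nearly equal at 1836 and 1902 bp. Of the 16 H82-only regions, 6 were upstream, 3 downstream and 7 intronic. The lines differed more in the flanks, covered to 9.43% in H82 and 3.77% in H146, than in the gene body, at 9.69% and 7.35%. The body alone had a log2 ratio of covered bases of 0.40, below the threshold. Among the introns, intron 1 held 6 H82 regions against 3, introns 5 and 14 held 1 each in H82 and none in H146, and intron 2 held 5 in each line. The call ended with flanks of 100 kb (log2 0.58), and when the ratio was divided by that of the whole atlases (0.46) or of chromosome 7 (0.29).

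IGF1R, the insulin-like growth factor 1 receptor, lies on the plus strand at chr15:98648539-98964530. H82 had 57 regions covering 9.77% and H146 had 34 covering 6.18%, 1.58 times higher in H82, a call that was lost when the ratio was divided by that of the whole atlases. Its TSS region in H82, at 5350 bp, was the widest region in any of the 9 windows. In H146 it measured 3577 bp, and the added width lay downstream, to 3658 bp from the TSS against 1955 bp. Introns 1 and 2 held most regions, 10 and 28 in H82 against 5 and 19 in H146. H82 covered more of the surrounding DNA as well, which is described for all 9 genes further on.

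RET, the receptor for the GDNF family and a driver of medullary thyroid cancer, was higher in H146. It lies on the plus strand at chr10:43077064-43130351, a short gene of 53.3 kb. H146 had 32 regions covering 17.3% of the window and H82 had 24 covering 10.2%, 1.70 times higher in H146 (log2 of H82 over H146, -0.76). The numbers differed less than the covered bases, with a log2 ratio of -0.42 and an interval of -1.24 to 0.39. With flanks of 100 kb the covered bases no longer reached the threshold (log2 -0.52). Wider regions made up part of the difference: the TSS region measured 4138 bp in H146 and 2289 bp in H82, and it reached 2354 bp downstream of the TSS against 681 bp.

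Around RET, 21 of 24 H82 regions were shared, while 12 of 32 H146 regions were H146-only. Of those 12, 6 lay upstream, within 50 kb of the TSS, where H82 had 11 regions, all of them shared. At 38 kb upstream a shared site measured 1645 bp in H146 and 200 bp in H82. Within the gene, intron 1 was covered to 32.0% in H146 and 15.4% in H82, and intron 12 to 74.3% and 14.9%. Intron 11, the usual breakpoint intron of RET fusions, held 1 narrow shared region in each line, of 200 bp in H146 and 219 bp in H82. A second RefSeq start, 27.7 kb downstream in intron 3, lay inside a region of 2162 bp in H146 and 1866 bp in H82.

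The widest H146-only region of RET, 649 bp at 4.76 kb upstream of the TSS, is shown by its central 200 bases (hg38 plus strand, chr10:43072214-43072413). It is shown without capitals because none of the words listed further on occurs in it.
RET upstream, H146-only: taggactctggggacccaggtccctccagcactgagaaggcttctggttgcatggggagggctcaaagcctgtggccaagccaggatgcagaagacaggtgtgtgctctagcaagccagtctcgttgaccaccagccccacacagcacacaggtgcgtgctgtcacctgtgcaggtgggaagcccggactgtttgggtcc

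KIT and PDGFRA, neighbours on chromosome 4 that encode the receptors for stem cell factor and for platelet-derived growth factors, were both higher in H146. KIT lies on the plus strand at chr4:54657267-54740783. H146 had 15 regions covering 6.45% of the KIT window and H82 had 10 covering 3.86%, 1.67 times higher in H146. Divided by the ratio of the surrounding DNA, 1 Mb beyond each side of the window, the KIT call was lost (log2 -0.30). The KIT TSS regions differed by little, 3927 bp against 3872 bp, and ended at the same base, 2291 bp downstream. Inside the gene H146 had 5 intronic regions outside the TSS region and H82 had 2, none of which overlapped across the lines.

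The widest H146-only KIT region, 1598 bp in intron 1 at 27.4 kb from the TSS, had an H82-only region of 425 bp only 97 bp away. Regions within 500 bp of each other were merged within an atlas, but not between the lines, so these neighbours count as line-only. The central 200 bases of the H146 region (hg38 plus strand, chr4:54685297-54685496) are shown because it is the widest H146-only region of the 9 windows, and it holds none of those words.
KIT intron 1, H146-only: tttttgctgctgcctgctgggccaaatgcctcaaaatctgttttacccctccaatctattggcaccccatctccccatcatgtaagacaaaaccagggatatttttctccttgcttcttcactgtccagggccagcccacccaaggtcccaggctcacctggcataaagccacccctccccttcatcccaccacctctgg

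PDGFRA lies on the plus strand at chr4:54229280-54298245. H146 had 16 regions covering 6.93% and H82 had 10 covering 3.89%, 1.78 times higher in H146. The call was lost with flanks of 10 kb (log2 -0.51) and when divided by the ratio of the surrounding DNA (-0.46). All 10 H82 regions were shared and 7 of the 16 H146 regions were not. Of those 7, 2 lay upstream, 2 in introns and 3 downstream. In neither line did a region cover the start base of the canonical transcript. The nearest regions were a 1250 bp region in H146 that began 606 bp downstream, and in H82 a 252 bp region that began at that same base and a 297 bp region that ended at -985 bp.

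The widest PDGFRA region in both lines lay instead in intron 1, 2554 bp in H82 and 2708 bp in H146, over a second start that RefSeq places 4.67 kb downstream of the first. The bases before the starts differ in composition. The 300-base window of the first start holds 8 CpG dinucleotides and that of the second 32, against a median of 14 over 35116 RefSeq promoters (quartiles 4 and 28). The first 200 bases of each window, which lie before the start, read from the plus strand and credited to RefSeq (GRCh38.p14, chr4:54229043-54229242 and chr4:54233710-54233909), are set side by side with every CG in capitals.
PDGFRA first start: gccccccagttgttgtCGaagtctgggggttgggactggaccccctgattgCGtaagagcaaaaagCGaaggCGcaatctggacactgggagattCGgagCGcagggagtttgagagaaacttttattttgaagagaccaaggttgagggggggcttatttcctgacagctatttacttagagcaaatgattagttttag
PDGFRA second start: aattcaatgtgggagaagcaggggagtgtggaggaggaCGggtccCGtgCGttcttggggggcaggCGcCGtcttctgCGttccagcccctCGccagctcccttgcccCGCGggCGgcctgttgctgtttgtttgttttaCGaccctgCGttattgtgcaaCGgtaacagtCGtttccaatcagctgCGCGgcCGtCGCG

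FGFR1, a fibroblast growth factor receptor that is amplified in some lung cancers, lies on the minus strand at chr8:38400215-38468834. H146 had 32 regions covering 16.5% of the window and H82 had 21 covering 11.6%, 1.42 times higher in H146 and below the threshold. It passed the threshold with flanks of 10 kb, without the promoters of other genes, and when divided by the ratio of the whole atlases, of chromosome 8 or of the surrounding DNA (log2 -0.60 to -0.83). Of the H146 regions 13 had no counterpart, against 3 of the H82 regions. The TSS region measured 2289 bp in H146 and 1685 bp in H82. The window also holds the promoters of NSD3 and LETM2, each with a shared region of over 2 kb, and part of the covered share is theirs. Other promoters fell into the windows of RET (CSGALNACT2) and IGF1R (PGPEP1L) as well.

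Introns were then compared one by one. The 9 canonical transcripts have 183 introns. Both lines had a region in 48 of them, H82 alone in 18, H146 alone in 14, and 103 were empty in both. The introns of all protein-coding genes were not counted, so nothing is read from how large these numbers are. ALK had 6 of the 18 H82-only introns and NTRK3 had 5. FGFR1 had 4 and RET 3 of the 14 H146-only introns. Of the 4 FGFR1 introns, 3 were short ones under 1 H146 region of 2757 bp that is itself shared. The 2 H146-only introns of NTRK3 were short ones of 0.157 and 0.115 kb under its TSS region.

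The ratio at each gene was set beside that of the DNA around it, taken as 1 Mb beyond each side of the window, and of its whole chromosome. ALK stood out from both, at a log2 ratio of covered bases of 1.42 in its window, 0.15 in the surrounding DNA and 0.37 on chromosome 2. NTRK3 kept part of its difference, at 2.26 in the window, 0.99 around it and 0.93 on chromosome 15. IGF1R, on the same chromosome, had 0.66 in the window and 0.61 around it, and divided by the chromosome's ratio its own became -0.27, the opposite direction.

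Of the other genes, MET had 0.73 in the window, -0.17 around it and 0.45 on chromosome 7. RET had -0.76, -0.05 and -0.13, so little of its difference was shared by the DNA around it. KIT and PDGFRA had -0.74 and -0.83, with -0.44 and -0.38 around them and 0.00 on chromosome 4. They lie near each other, and their surrounding DNA is largely the same. FGFR1 and NTRK2 went against their surroundings, at -0.50 against 0.32 and -0.11 against 0.55. The part that DNA copy number has in these ratios was not tested.

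**Figure D4:**
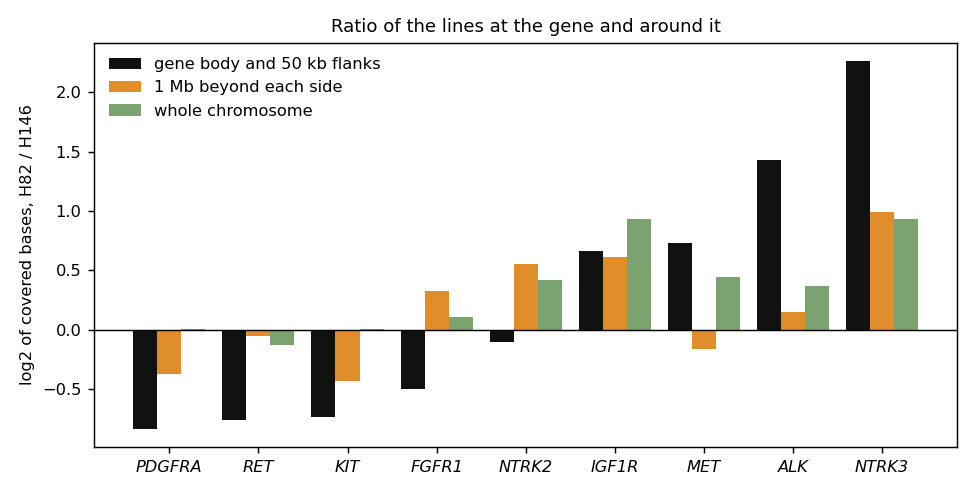
The log2 ratio of covered bases, H82 over H146, for each of the 9 genes in the gene body and 50 kb flanks (black), in 1 Mb beyond each side (orange) and on the whole chromosome (green). For ALK the window bar, 1.42, stands far above the others at 0.15 and 0.37, whereas for IGF1R the window bar, 0.66, is below that of chromosome 15 at 0.93.

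Short words known as the consensus of lineage factors were counted on both strands in the line-only regions of the 9 windows, which hold 75.9 kb in H82 and 25.7 kb in H146. For the E-box of the NEUROD1 type the word was CAGATG. For the homeobox factor OTX2 the word was TAATCC. The forkhead factors of the FOXA family were given TGTTTAC as their word. The stress-responsive factor AP-1 was given TGANTCA, with N for any base. The zinc finger factors of the GATA family were given AGATAA as theirs. The AP-1 word reads the same on both strands and was counted once. Within the H82-only regions of the 9 genes CAGATG had 112 matches, or 1.48 per kb, and within the H146-only ones 18, or 0.701 per kb. The log2 ratio was 1.07 with a counting interval of 0.35 to 1.88. The same classes of the whole atlases gave 0.47, which lies inside that interval. Of the 112 H82-only matches 49 were at ALK and 17 at NTRK3, whereas 2 of the 18 H146-only matches were at ALK.

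TAATCC had 76 matches in the H82-only and 12 in the H146-only regions, which per kb is a log2 ratio of 1.10 (interval 0.21 to 2.11). The whole atlases gave 1.49, also inside the interval. For the FOXA, AP-1 and GATA words the log2 ratios were -0.40, -0.27 and 0.43, each with an interval that included 0, where the whole atlases gave -1.28, -0.46 and -0.04. A match is a stretch of letters and not a bound factor, and regions of 1 gene are not independent of each other.

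At ALK, 26 of the 57 H82-only regions held CAGATG at least once (45.6%), and at NTRK3 12 of 25 did (48.0%). Over the whole atlas 43.4% of the 84208 H82-only regions held it. Such shares depend on width: per kb, the word occurred 1.32 times at ALK and 1.83 times at NTRK3, whose regions are narrow, against 1.24 times over the atlas. TAATCC was found in 17 of the 57 ALK regions (29.8%) and in 10 of the 25 NTRK3 regions, against 44.1% of all H82-only regions. The H82-only regions of ALK were poorer in CpG than its shared regions, at 7.70 against 20.9 CpG per kb, and the same contrast held over the whole H82 atlas, at 15.6 against 29.7.

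Among all 58 receptor tyrosine kinase genes, 28 were higher in H82 by covered bases and 5 in H146, against 29.5% and 5.26% of all protein-coding genes. RET, KIT and PDGFRA are 3 of the 5, and the others are TEK and EPHA5. The 9 genes are among the 58 and were chosen on this contrast, so nothing is read from these counts. The 49 kinase genes outside the 9 had a median log2 ratio of 0.58, with 24 higher in H82 and 2 in H146. The median was -0.11 for the 9 and 0.19 for all genes with regions in both lines. For context, ROR2, LTK and EPHA8 had the highest ratios among those with at least 5 regions in each line, at 8.77, 3.61 and 3.21. NTRK3 had a higher ratio than LTK, but its 3 H146 regions fall below that minimum. EPHA5, TEK and EPHA3 had the lowest among the 49, at 0.603, 0.619 and 0.809. MUSK, MST1R, TIE1, DDR2 and LTK had a TSS region in H82 alone, as did 4.74% of all genes and none of the 9.

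Of the protein-coding genes with a body of at least 50 kb and regions in both lines, 6745 in all, NTRK3 ranked 127th and ALK 484th from the highest ratio of H82 to H146. PDGFRA ranked 120th, RET 163rd and KIT 186th from the lowest. These ranks place the 9 genes in the genome and are no test, since the genes were chosen on the same contrast.

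**Figure D5:**
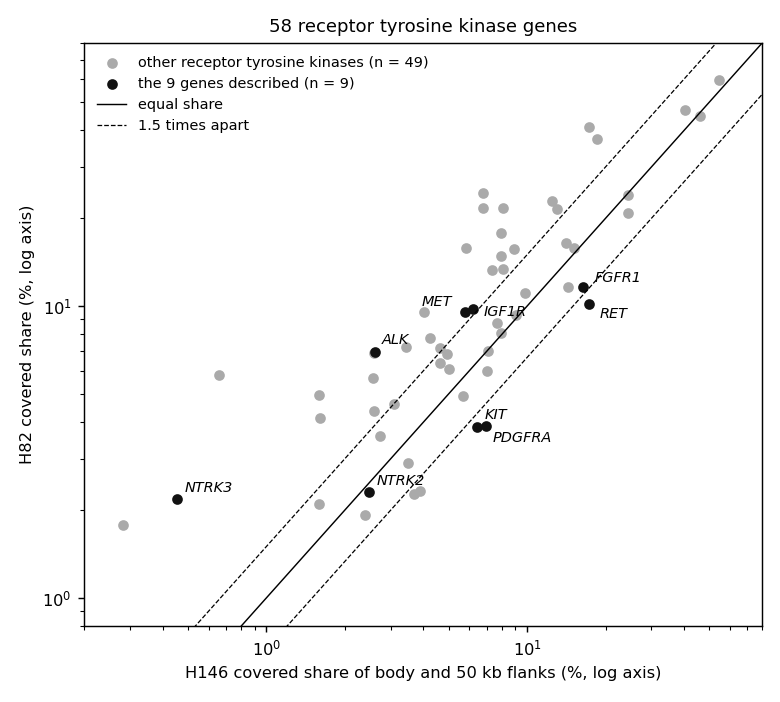
Covered share of the gene body and 50 kb flanks in H146 (horizontal, %, log axis) and H82 (vertical, %, log axis) for 58 receptor tyrosine kinase genes, the 9 described in black and the other 49 in grey, with a line at equal shares and dashed lines 1.5 times apart. RET, KIT and PDGFRA lie below the lower dashed line, and NTRK3 and ALK lie well above the upper one.

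The ligands, coreceptors and adaptors of these pathways were compared in the same way. Of 20 ligand genes, 17 had a TSS region in both lines, PSPN, a ligand of the RET complex, and IGF1, the ligand of IGF1R, had one in H82 only, and FGF1 had one in neither. By covered bases 6 ligand genes were higher in H82 and 1 in H146, shares near the 29.5% and 5.26% of all genes, so the counts are no result about ligands. The 6 were GDNF, NRTN, ARTN and PSPN, the ligands of RET, at 1.99, 3.38, 2.48 and 1.92 times, and the fibroblast growth factors FGF2 and FGF18, at 1.52 and 1.68 times. The RET ligand genes are short, so flanks make up most of their windows, and regions of neighbouring genes were not left out. The 1 higher in H146 was PDGFA, a ligand of PDGFRA, at 1.52 times. The ALK ligand genes ALKAL1 and ALKAL2 had log2 ratios of 0.03 and -0.19 and a TSS region in both lines.

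The 4 GFRA genes, the coreceptors through which GDNF family ligands reach RET, had a TSS region in both lines. GFRA1 was 1.95 times higher in H82, GFRA4 was 1.53 times higher in H146, and GFRA2 and GFRA3 were not called. Of 13 genes for adaptors and feedback inhibitors, which pass on or dampen the signal of these receptors, all had a TSS region in both lines, and 2, SHC2 and SHC3, were higher in H82. Among all genes, 77.8% had a TSS region in both lines, 29.5% were higher in H82 and 5.26% in H146. With so few genes in these lists, the counts are no result about coreceptors or adaptors.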

How the data were processed

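The 13 ATAC-seq libraries were processed by the authors. Per the study's methods and the labels, reads were trimmed (Trim Galore 0.4.4), aligned to hg38 (Bowtie2 2.3.4) and stripped of duplicates (Picard). Regions were called in each library (MACS2, version not given in the sources used here), filtered against the hg38 blacklist and merged within 500 bp into 1 atlas per line. The deposited files give only start and end positions in bp, without score, count or library; the authors counted reads (featureCounts 1.6.0) and tested them (DESeq2), and those values were not used here. 1 untreated and the 3 treated H146 libraries were sequenced in a batch of their own, which the labels do not mark. Because the files hold no counts, the planned edgeR test of FHD-286 was not run. 0 columns of single samples were left aside.

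Regions on 24 chromosomes were set against GENCODE release 44 (hg38, the files' build), using 1 canonical transcript per protein-coding symbol, with Python 3.11.15, numpy 2.4.6, scipy 1.17.1 and matplotlib 3.10.9. Ratios of region numbers have 95% exact binomial intervals, which cover counting error only. Interval code was checked on simulated regions, and shared regions differed from those of bedtools 2.31.1 in 0 cases in either line. All 9 members are named. Other kinases are named if a TSS region was in 1 line only or for the 3 highest and 3 lowest ratios (at least 5 regions in each line), and ligands, coreceptors and adaptors if a TSS region was in 1 line only. Those of these last lists that were called, or without a TSS region, and the ALK ligands are named after their values were seen. The results of 1 marker are not reported here. Members and lists were chosen with earlier results of these data known.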

Additional observations from a re-analysis of the deposited data

How the results depend on the processing

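No paired analysis was possible because each atlas pools the libraries of a line, and for the same reason no library could be left out. Of 93 values on counts and shares recomputed under other settings, 75 stayed within 1.5 times or the counting interval and 18 moved. The 75 include TSS counts of 0 that stayed 0, and counts that stayed while their genes changed. With flanks of 10 kb, 3 genes were still higher in H146 by covered bases, but FGFR1 took the place of PDGFRA. The 4 genes higher in H82 by covered bases became 2, ALK and NTRK3, when ratios were divided by that of the whole atlases or of the chromosome, and at a fold of 2; the 3 higher in H146 became 0 at a fold of 2. Calls by covered bases lost under other flanks or divisions stand beside each gene. Counted by number, FGFR1 lost its call with flanks of 100 kb and PDGFRA with flanks of 10 kb. Regions of at least 500 bp ended the number calls of MET and FGFR1. The chromosome's ratio ended those of MET, IGF1R and FGFR1, and the ratio of the whole atlases that of IGF1R. By number of regions the counts became 2 in H82 under the chromosome's ratio and at a fold of 2, and 0 in H146 at a fold of 2. Of the 58 kinases, 15 (chromosome's ratio) and 17 (fold of 2) were higher in H82, and 3 (flanks of 100 kb) and 0 (fold of 2) in H146. Where the start base itself had to be covered, 1 gene had a TSS region in H146 only (NTRK3) and 1 in neither (PDGFRA), and with regions of at least 500 bp, 2 had it in H146 only (NTRK3 and PDGFRA). By region centre, 8 introns were H146-only. The shared share fell to 35.2% in H82 and 50.3% in H146 at an overlap of 50% of both regions, and was 53.7% in H82 with regions of at least 500 bp. Divided by the chromosome's ratio, IGF1R turned to -0.27 (covered bases) and -0.10 (number) on the log2 scale. Division by the ratio in the surrounding 1 Mb, chosen after seeing the data, ended the calls of IGF1R (0.05), KIT and PDGFRA, left NTRK3 at 1.28, added FGFR1 and NTRK2 (-0.66) to those higher in H146, and regions of at least 500 bp left NTRK3 at 1.15.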
